A study of Homo sapiens with 3 samples.

Results

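HOX genes encode homeodomain transcription factors that sit side by side in 4 clusters, HOXA, HOXB, HOXC and HOXD. Probe sets were taken as members where the array annotation names 1 gene symbol made of HOXA, HOXB, HOXC or HOXD and a number between 1 and 13, and antisense genes were left out. This gave 44 probe sets of 28 genes, among 19775 named genes on arrays of 54613 probe sets. The HOXB cluster was covered in full by 10 genes, the HOXC cluster in full by 9 genes, and the HOXD cluster by 8 of its 9 genes. Of the 11 HOXA genes only HOXA2 had such a probe set. The other 10 HOXA genes and HOXD3 are not analysed here, so the HOXA cluster stands on HOXA2 alone in all that follows.

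The cells were IMR-90, an established line of human fetal lung fibroblasts, and RNA was taken 24 h after siRNA transfection with the RNAiMAX reagent. The groups were SETD8 siRNA 1 and SETD8 siRNA 2, which are separate siRNAs against SETD8, and a control siRNA labelled GL3. All 3 groups therefore share the line, the medium with 10% serum, the transfection and the time. SETD8, also known as PR-Set7 and listed here as KMT5A, places the single methyl group on lysine 20 of histone H4.

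Each siRNA was measured on 1 array, so no value has a replicate error, no test was possible and no p-value is given. The deposited values are linear signals from the MAS5 method, and log2 values were taken after raising signals under 11.7, the 25th percentile of all values, to that floor. A gene was represented by the probe set with the highest mean log2 signal, and it passed the signal filter where that mean reached 5.39, a signal of 42.0 and the median over all probe sets. With no replicates, the size of the log2 gap between SETD8 siRNA 2 and SETD8 siRNA 1 over all genes served as the yardstick for spread; it holds real differences between the siRNAs as well as noise. Its 95th percentile was 2.21 in the lowest signal quartile of the genes above the filter, 1.72 in the second, 1.25 in the third and 1.14 in the highest. The median signal of an array lay between 44.9 and 46.2. KMT5A had a signal of 431.4 with SETD8 siRNA 1, 584.1 with SETD8 siRNA 2 and 938.9 with the control siRNA on its brightest probe set, and it was below control on all 4 of its probe sets, at 45.9% to 74.7% of control with SETD8 siRNA 1 and at 62.2% to 86.3% of control with SETD8 siRNA 2. All 12 fibroblast markers passed the filter on these arrays, against 5 of 12 epithelial, 3 of 8 endothelial and 2 of 6 leukocyte markers. Over all named genes, 62.2% passed. The lung epithelial regulator NKX2-1 was under the floor on every array.

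Within each cluster the genes are numbered along the chromosome, and genes with the same number in different clusters are paralogs. Low numbers are used at the head end of the embryo and high numbers at the tail end and in the distal limbs, and fibroblasts in culture keep such a pattern from the place in the body they came from. HOX proteins bind DNA together with the PBX and MEIS homeodomain cofactors. Polycomb complexes hold HOX genes silent, and trithorax-type methyltransferases such as KMT2A keep them active.

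RefSeq promoter windows of build GRCh38.p14 were at hand for 11 of the 28 genes, and none of them belongs to a HOXB gene with signal. Shown are 250 bases upstream of the annotated start, in capitals where the composite HOX and PBX motif TGATNNAT occurs on either strand. HOXA2 is shown because it was the lowest relative to control with SETD8 siRNA 2 among the HOX genes above the filter, on chr7:27102684-27102933, minus strand. HOXB1 is shown as the lowest-numbered gene of HOXB, under the filter in a cluster where most genes passed it, on chr17:48531012-48531261, minus strand. HOXC4 and HOXC5 are listed with the same start and so have the same window, on chr12:54016638-54016887, plus strand.
HOXA2: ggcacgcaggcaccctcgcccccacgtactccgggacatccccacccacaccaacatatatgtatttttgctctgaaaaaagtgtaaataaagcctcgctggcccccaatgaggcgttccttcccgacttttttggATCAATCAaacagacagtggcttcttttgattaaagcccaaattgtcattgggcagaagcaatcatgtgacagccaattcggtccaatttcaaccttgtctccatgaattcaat
HOXB1: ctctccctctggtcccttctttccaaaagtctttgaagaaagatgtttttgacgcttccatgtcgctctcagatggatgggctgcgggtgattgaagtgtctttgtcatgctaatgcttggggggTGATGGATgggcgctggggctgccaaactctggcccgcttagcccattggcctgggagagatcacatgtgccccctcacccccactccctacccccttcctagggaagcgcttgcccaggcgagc
HOXC4 and HOXC5: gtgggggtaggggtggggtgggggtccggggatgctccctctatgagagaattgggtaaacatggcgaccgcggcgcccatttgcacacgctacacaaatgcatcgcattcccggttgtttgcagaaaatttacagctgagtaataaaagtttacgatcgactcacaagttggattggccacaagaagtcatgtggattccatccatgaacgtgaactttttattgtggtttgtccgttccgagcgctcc

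TGATNNAT was found once in the HOXA2 window, once in the HOXB1 window and not in the window shared by HOXC4 and HOXC5. Over all 34788 distinct promoter windows of this length, 6.49% held it. The 20 HOX genes with a window had 26 distinct windows, since some have several starts, and 3 of these held it, the remaining one being that of HOXD11. The CCAAT box, searched as CCAAT on both strands, was found in 17 of the 26 HOX windows and in 32.0% of all windows. The HOXA2 window holds 4 such boxes, the HOXC4 and HOXC5 window 2 and the HOXB1 window 1. The motifs do not overlap in their letters, and a match describes the sequence only.

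Signal above the filter was found from HOXB2 through HOXB9, at HOXC4, HOXC5, HOXC6 and HOXC11 and at HOXA2, and nowhere in HOXD. Of the 28 genes, 13 passed the filter (46.4%), against 62.2% of all named genes, and 6 also passed the 75th percentile of all probe sets, a signal of 349 (21.4%, against 39.2% of all named genes). These 6 were HOXB2, HOXB3, HOXB4, HOXB5, HOXB6 and HOXB7, which are neighbours on the chromosome. Of the 5 genes numbered 1 to 3, 3 passed the filter, of the 11 numbered 4 to 8, 8 passed, and of the 12 numbered 9 to 13, 2 passed. These bands differ in their mix of clusters. HOXD9 to HOXD13, of a cluster with no gene above the filter, fall in the last band, and most HOXA genes are missing from all bands. Number and cluster therefore cannot be told apart in these counts. The count for numbers 4 to 8 depends on probe sets of a kind that can bind several transcripts. HOXB5, HOXB6, HOXB7, HOXB8 and HOXC6 passed only through such probe sets. With these left out, 8 genes passed, namely HOXA2, HOXB2, HOXB3, HOXB4, HOXB9, HOXC4, HOXC5 and HOXC11. Of the genes numbered 4 to 8, only HOXB4, HOXC4 and HOXC5 then remained. Signals of different probe sets depend on the probes, so genes are described as above or below the filter and are not ranked by level.

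**Figure D1:**
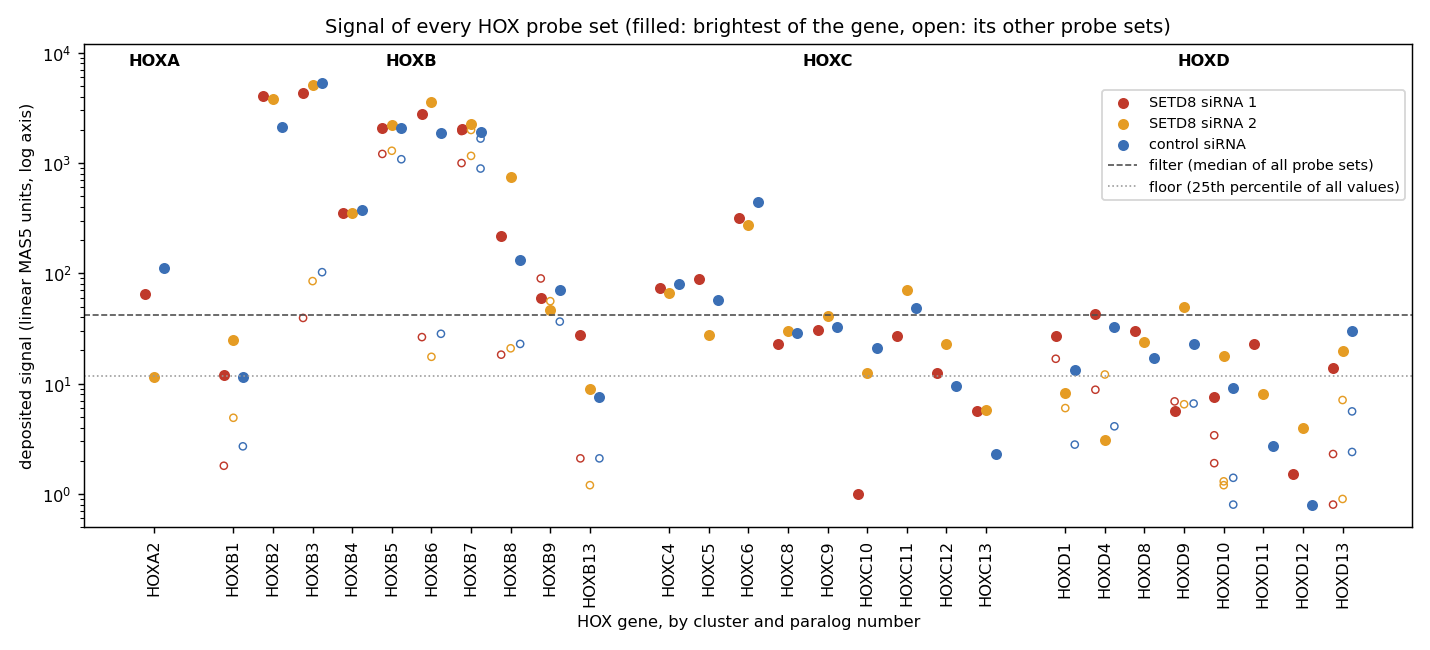
Deposited signal (log axis) of all 44 HOX probe sets, with genes in the order of their clusters and numbers, filled points for the brightest probe set of a gene and open points for its others, and SETD8 siRNA 1, SETD8 siRNA 2 and control siRNA side by side. The filled points of HOXB2 to HOXB7 lie well over the dashed filter line at 42.0 on all arrays, while the brightest HOXD probe sets lie around or under it.

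HOXB2 and HOXB3 pattern the hindbrain in mouse embryos. HOXB2 had a signal of 4085.0 with SETD8 siRNA 1, 3787.4 with SETD8 siRNA 2 and 2132.1 with the control siRNA. Both SETD8 siRNA arrays were thus above the control array and close to each other, at log2 fold changes of 0.94 and 0.83 (1.92-fold and 1.78-fold). In the same signal quartile, 1.46% of genes were higher with both siRNAs by at least the smaller of these changes, 1.78-fold. HOXB3 had 4339.2 with SETD8 siRNA 1, 5149.4 with SETD8 siRNA 2 and 5288.6 with the control siRNA, log2 fold changes of -0.29 and -0.04, the second of which was 0.003 after scaling the arrays to a common median. Its dimmer probe set, of the kind that can bind related transcripts, gave 39.4, 85.0 and 102.4 in the same order. On that probe set the log2 fold change with SETD8 siRNA 1 was -1.38, which the bright probe set did not show.

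HOXB4, a gene known for its effect on blood stem cells, had 354.9 with SETD8 siRNA 1, 349.1 with SETD8 siRNA 2 and 378.5 with the control siRNA. HOXB5, whose mouse counterpart takes part in branching of the lung airways, had 2085.4, 2202.1 and 2064.6 in the same order. HOXB7 had 2019.6 with SETD8 siRNA 1, 2274.1 with SETD8 siRNA 2 and 1901.7 with the control siRNA. For these 3 genes the log2 fold changes lay between -0.12 and 0.26 on the brightest probe set, and that of HOXB4 with SETD8 siRNA 1 (-0.09) was 0.01 after quantile normalization. The second HOXB5 probe set (log2 fold changes 0.16 and 0.26) and the other HOXB7 probe sets (0.17 to 0.23 with SETD8 siRNA 1 and 0.26 to 0.38 with SETD8 siRNA 2) had the same sign.

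HOXB6 had a signal of 2789.6 with SETD8 siRNA 1, 3552.4 with SETD8 siRNA 2 and 1864.2 with the control siRNA. Both SETD8 siRNA arrays were above the control array, by 0.58 and 0.93 on the log2 scale. HOXB8, which holds mouse myeloid progenitors in an immature state when overexpressed, had 216.2 with SETD8 siRNA 1, 744.4 with SETD8 siRNA 2 and 130.9 with the control siRNA. It was 1.65-fold above control with SETD8 siRNA 1 and 5.69-fold above it with SETD8 siRNA 2, and the value with SETD8 siRNA 2 (2.51 on the log2 scale) was over the spread of 1.72 for its signal. Its gap between the SETD8 siRNA arrays, 1.78 on the log2 scale, was also over that spread. In the signal quartile of HOXB8, 2.57% of genes were higher with both siRNAs by at least its smaller change, 1.65-fold. In that of HOXB6, 3.38% were higher with both by at least its smaller log2 change, 0.58. HOXB8 and HOXB6 each have another probe set that is not of the shared type, and neither of these passed the filter. The HOXB8 one read 18.3, 20.9 and 22.9 and the HOXB6 one 26.4, 17.5 and 28.3, with SETD8 siRNA 1, SETD8 siRNA 2 and the control siRNA in that order. Neither was above control on the SETD8 siRNA arrays, so the higher values of HOXB6 and HOXB8 rest on 1 probe set each, of the type that can bind several transcripts. HOXB5, HOXB7 and HOXC6 also passed the filter only through probe sets of that type.

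The ends of HOXB lay near or under the filter. HOXB9 had 2 probe sets just over the filter that differed in direction, 1 with 59.4, 46.6 and 70.2 and the other with 89.8, 55.9 and 36.5, with SETD8 siRNA 1, SETD8 siRNA 2 and the control siRNA in that order. No direction is therefore given for HOXB9. HOXB1, the most head-ward gene of the cluster, had at most 24.8 on any array, and HOXB13, a tail-end gene best known from the prostate that lies apart from the rest of the cluster, had at most 27.5. No HOXB probe set under the filter exceeded 28.3.

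In HOXC the genes with signal were the low-numbered HOXC4, HOXC5 and HOXC6 and, near the filter, HOXC11. HOXC6, a gene of the chest level, had 316.2 with SETD8 siRNA 1, 274.6 with SETD8 siRNA 2 and 444.3 with the control siRNA, so both SETD8 siRNA arrays were below control, by log2 fold changes of -0.49 and -0.69. HOXC4 had 74.1, 66.0 and 79.4 in the same order, a smaller difference of the same sign. HOXC5, which shares its annotated start with HOXC4, had 88.6 with SETD8 siRNA 1, 27.6 with SETD8 siRNA 2 and 56.9 with the control siRNA, so the SETD8 siRNA arrays lay on either side of control. HOXC11, a gene of the hind part of the body, had 26.9, 70.8 and 48.1 in that order and also lay on either side. The remaining 5 genes, HOXC8, HOXC9, HOXC10, HOXC12 and HOXC13, did not pass the filter and had at most 40.8 on any array.

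HOXD was represented by 15 probe sets of HOXD1, HOXD4, HOXD8, HOXD9, HOXD10, HOXD11, HOXD12 and HOXD13, and none passed the filter. The highest signal was 49.1, from HOXD9 with SETD8 siRNA 2, where SETD8 siRNA 1 gave 5.7 and the control siRNA 22.9. The second probe set of HOXD9 read 6.9, 6.5 and 6.6. For HOXD10, HOXD12 and HOXD13, genes of the developing limb and the hind end of the body, 5 of the 7 probe sets were under the floor on every array. Genes under the filter were not detectable above the low range of signals on these arrays, which does not show that they were silent.

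HOXA2, a gene of the hindbrain and, in mouse, of the second pharyngeal arch, had a signal of 65.6 with SETD8 siRNA 1, 11.4 with SETD8 siRNA 2 and 112.0 with the control siRNA. Both SETD8 siRNA arrays were below control, 1.71-fold with SETD8 siRNA 1 and at least 9.57-fold with SETD8 siRNA 2, whose signal was under the floor. It is a dim gene with 1 probe set, and a decrease of 1.71-fold or more with both siRNAs was seen for 6.34% of genes of its signal quartile. It passed the filter through the control and SETD8 siRNA 1 arrays, and the members nearest the filter were HOXA2 (mean signal 44.1), HOXC11 (45.1) and HOXC5 (51.8) above it and HOXC9 (34.4), HOXC8 (27.1) and HOXD4 (25.5) below it.

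Counted by a fixed size, few HOX genes passed. None of the 13 genes above the filter was at least 2-fold higher with both SETD8 siRNAs, against 1.5% of the 12307 genes above the filter, and none was at least 2-fold lower with both, against 3.23%. Counts of 0 among 13 genes lie near this background. At 1.5-fold, HOXB2 and HOXB8 were higher with both (background 4.6%) and HOXA2 was lower with both (background 7.38%). With SETD8 siRNA 1 alone no HOX gene was 2-fold higher (background 5.48%) or 2-fold lower (background 7.75%). With SETD8 siRNA 2 alone HOXB8 was at least 2-fold higher (background 4.46%) and HOXA2 and HOXC5 were at least 2-fold lower (background 6.65%).

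At any size, 5 of the 13 genes were higher with both siRNAs (background 31.1%) and 6 were lower with both (background 33.9%). The 5 were HOXB2, HOXB5, HOXB6, HOXB7 and HOXB8. The 6 were HOXA2, HOXB3, HOXB4, HOXC4, HOXC6 and HOXB9, the last on a probe set that its other probe set contradicts. After median scaling 5 were lower with both, without HOXB3, and after quantile normalization 5, without HOXB4. No HOX gene above the filter exceeded the spread between the SETD8 siRNA arrays with both siRNAs (background 2.06%). None exceeded it with SETD8 siRNA 1 alone (background 5.69%). HOXA2 and HOXB8 exceeded it with SETD8 siRNA 2 (background 4.07% in either direction). For these genes the log2 gap between the SETD8 siRNA arrays was itself over the spread. It was -2.49 for HOXA2 (spread 2.21) and 1.78 for HOXB8 (spread 1.72). Set against each other, SETD8 siRNA 2 was at least 2-fold above SETD8 siRNA 1 for HOXB8 and HOXC11 (background 6.18%) and at least 2-fold below it for HOXA2 and HOXC5 (background 6.38%). The comparisons with the 2 siRNAs share the control array, so a deviation of that array alone would give the same sign in both.

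**Figure D2:**
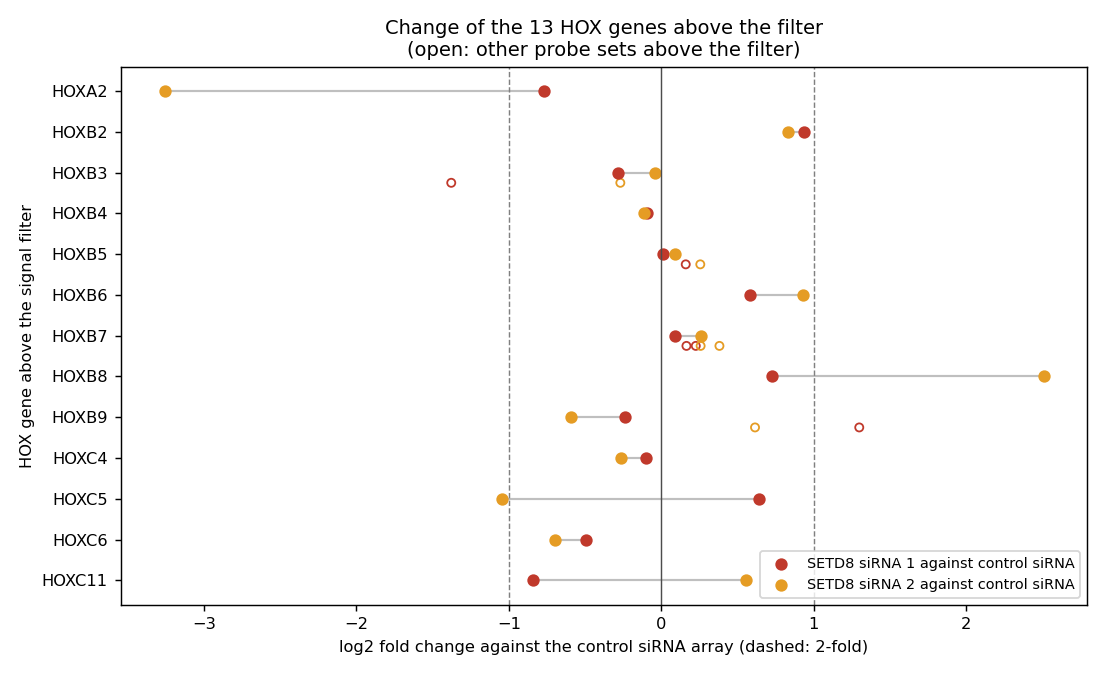
Log2 fold change against the control siRNA array (horizontal axis) of the 13 HOX genes above the filter, with SETD8 siRNA 1 and SETD8 siRNA 2 as filled points on the brightest probe set and open points for other probe sets above the filter. HOXA2 lies at -0.77 and -3.26 and HOXB8 at 0.72 and 2.51, while the filled points of HOXB3, HOXB4, HOXB5 and HOXB7 lie between -0.29 and 0.26.

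By cluster, the median log2 fold change of the 8 HOXB genes above the filter was 0.05 with SETD8 siRNA 1 (SD over genes 0.47) and 0.18 with SETD8 siRNA 2 (SD 0.96). For the 4 HOXC genes it was -0.30 (SD 0.63) and -0.48 (SD 0.69). HOXA2 alone stands for HOXA at -0.77 and -3.26, and HOXD gave no value. Over all 13 HOX genes the medians were -0.09 and -0.04, near 0 and of either sign under other scalings, and over all 12307 genes above the filter they were -0.02 and -0.01. With 1 array per siRNA the difference between the HOXB and HOXC medians was not tested.

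Of 12 measured noncoding genes of the clusters, 4 passed the filter, against 62.2% of all named genes. None of the 4 was 2-fold apart from control with both siRNAs. HOXB-AS3, which is transcribed from the other strand within HOXB, had 1294.6 with SETD8 siRNA 1, 2007.6 with SETD8 siRNA 2 and 1498.7 with the control siRNA on its brightest probe set. Its other probe sets, all above the filter, had log2 fold changes of -0.18 to 0.17 with SETD8 siRNA 1 and 0.08 to 0.64 with SETD8 siRNA 2. The probe set annotated to MIR10A, a microRNA gene beside HOXB4, had 102.1, 114.8 and 106.8 and measures a longer transcript, not the mature microRNA. HOXB-AS1 had 55.6, 63.3 and 79.5 on its brightest probe set and 105.6, 49.3 and 40.1 on the other, in the same order. HOTTIP, at the high-numbered end of HOXA, had 82.2 with SETD8 siRNA 1, 11.2 with SETD8 siRNA 2 and 112.5 with the control siRNA, while its other probe sets read 24.9, 26.2 and 28.2, and 4.0, 11.3 and 4.2. HOTAIR, from HOXC, was under the floor on every array. The mature miR-10a of the HOXB cluster is shown because it is the conserved small RNA product of the active stretch, at chr17:48579904-48579926, minus strand, GRCh38.p14 from RefSeq, with its seed (bases 2 to 8) in capitals.
hsa-miR-10a-5p: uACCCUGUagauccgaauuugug

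All 8 measured HOX cofactor genes of the PBX, MEIS and PKNOX families passed the filter, against 62.2% of all named genes. Of the 8, 6 were lower with both siRNAs at any size (background 33.9%) and none higher. PBX4, among the 6, had 29.0 with SETD8 siRNA 1, 39.5 with SETD8 siRNA 2 and 72.7 with the control siRNA. It passed the filter through the control array, so its place among the 6 is not independent of its change. None reached 2-fold with both, and the medians were -0.42 and -0.55. MEIS2 had 1563.7 with SETD8 siRNA 1, 1614.9 with SETD8 siRNA 2 and 2801.4 with the control siRNA, and MEIS1 had 2159.1, 1825.7 and 2583.3. PKNOX1 had 893.3, 1121.3 and 1062.5, with no shared direction.

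A list of 17 chromatin regulators was grouped as mostly supporting HOX expression, though YY1, CTCF and RAD21 in it are not plain activators. In it, the 2-fold rule with both siRNAs was met by 1 lower gene (background 3.23%) and by no higher gene (background 1.5%). These shares were near the background, and the medians were -0.28 and -0.28. The lower gene was PSIP1, which encodes LEDGF, the chromatin tether of KMT2A complexes. It had 1465.9 with SETD8 siRNA 1, 1102.0 with SETD8 siRNA 2 and 3645.2 with the control siRNA. The brightest probe sets of the list were those of YY1, RAD21 and AFF4, at log2 fold changes of 0.05 and -0.18, -0.60 and -0.80, and 0.36 and -0.03. Among 16 repressive regulators, mostly Polycomb, the rule was met by 1 lower gene and no higher gene, also near the same backgrounds, with medians of -0.04 and -0.02. It was EZH2, the methyltransferase of Polycomb complex PRC2, which had 328.3, 256.1 and 1150.6 with SETD8 siRNA 1, SETD8 siRNA 2 and the control siRNA. SUZ12, another PRC2 subunit, had -0.28 and -0.54, PHC2 0.74 and -0.07, and PHC3 -0.04 and 0.08. The part of EZH2 or PSIP1 in the values of any HOX gene was not tested.

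Of 31 measured genes in the chromosome regions around the clusters, 26 passed the filter, against 62.2% of all named genes. None of the 26 was 2-fold apart from control with both siRNAs, and their medians were 0.06 and -0.19. The brightest probe sets among them were those of ATP5MC3 (0.23 and -0.04), HNRNPA2B1 (-0.40 and -0.71) and CBX3 (-0.09 and -0.52). Of 22 measured transcription factor genes of lung mesenchyme, 15 passed the filter, a share near the 62.2% of all named genes. Their medians were 0.01 and -0.27, and none was 2-fold apart with both siRNAs. FOXF1, a regulator of lung mesenchyme, had 13278.3 with SETD8 siRNA 1, 9656.7 with SETD8 siRNA 2 and 8928.0 with the control siRNA. TBX5, a heart and lung field gene, had 1026.2, 1562.3 and 1521.5, TBX3 had 7857.1, 2894.8 and 3606.0, and FOXL1 had 4740.3, 3296.8 and 2246.5. TBX4, of the same list, was under the floor on every array, with 6.9, 6.2 and 5.1.

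Retinoic acid, which switches on low-numbered HOX genes in the embryo, had 2 genes at least 2-fold higher with both siRNAs among 11 above the filter (background 1.5%), and none lower. The receptor RARA had 391.8 with SETD8 siRNA 1, 256.6 with SETD8 siRNA 2 and 91.7 with the control siRNA. CYP26B1, an enzyme that breaks down retinoic acid, had 271.8 and 43.2 on the SETD8 siRNA arrays against 5.4, under the floor, on the control array. It passed the filter through the SETD8 siRNA arrays, so its place among the 2 genes is not independent of its change. Its log2 fold changes of 4.54 and 1.88 are lower bounds. The list medians were 0.58 and -0.12. RXRA, NR2F1 and RDH10, with the brightest probe sets of the list, had -0.08 and 0.01, -0.42 and -0.17, and 1.15 and 0.30.

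**Figure D3:**
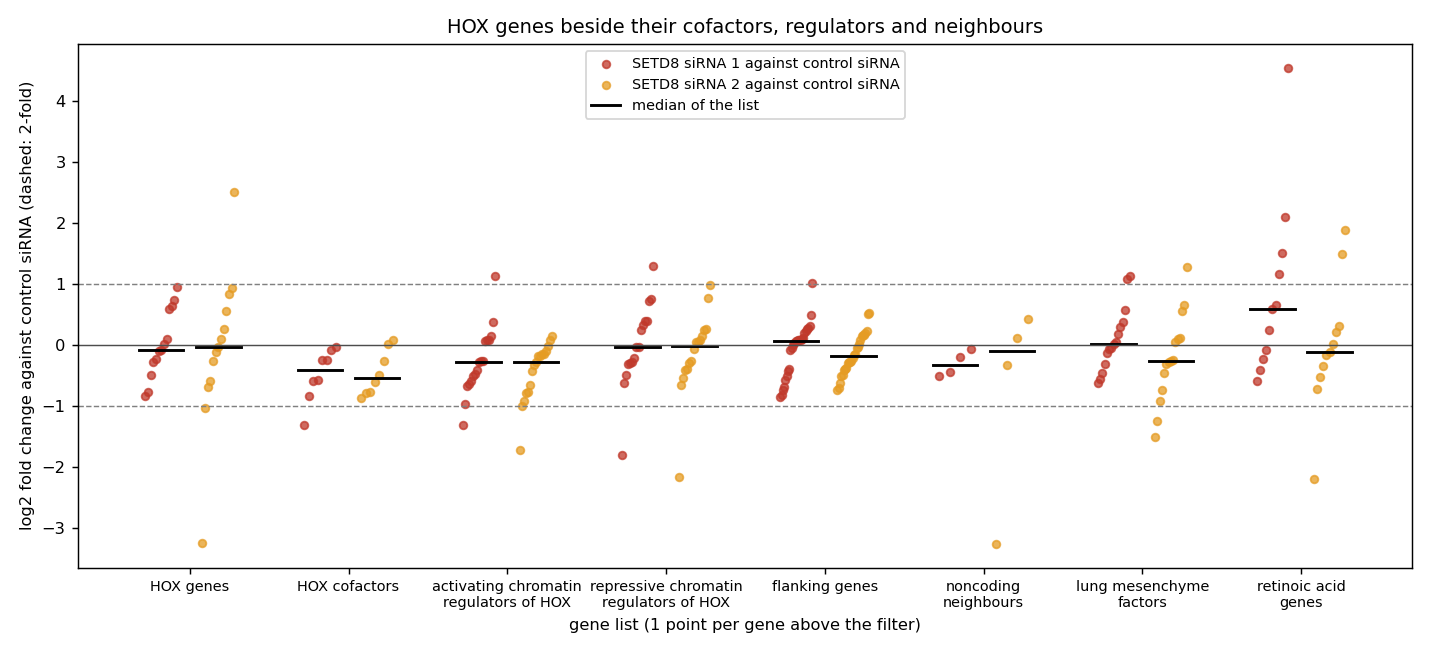
Log2 fold change against the control siRNA array (vertical axis, dashed lines at 2-fold) of the genes above the filter in each list, with 1 point per gene, SETD8 siRNA 1 left of SETD8 siRNA 2 and a bar at the list median. The HOX medians lie at -0.09 and -0.04, the cofactor medians at -0.42 and -0.55, and EZH2 and PSIP1 are the lowest points of their lists with both siRNAs.

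Markers of other cell types are given beside HOXB8, which was highest with SETD8 siRNA 2 on its brightest probe set only. The summed signal of the 12 epithelial markers was 3485.0 with SETD8 siRNA 1, 6740.5 with SETD8 siRNA 2 and 3616.7 with the control siRNA, and most of it came from KRT18, with 2962.8, 6010.1 and 2987.4. KRT8 had 126.2, 233.7 and 106.1 and EPCAM 49.1, 194.2 and 157.1. The other 2 epithelial markers above the filter were below control with SETD8 siRNA 2, SFTPB with 194.7, 127.7 and 142.1 and SFTPC with 68.7, 47.4 and 80.7. CDH1, FOXA2, KRT5, KRT14, KRT19, CLDN4 and NKX2-1 did not pass the filter. The endothelial sum was 1596.0, 2208.0 and 1405.3 in the same order, mostly from TEK, with CDH5 and ESAM under the floor on every array. PECAM1 (135.0, 52.7 and 49.0) and VWF (130.5, 80.9 and 59.7), the other endothelial markers above the filter, were highest with SETD8 siRNA 1. The leukocyte sum was 264.0, 254.9 and 240.6. The fibroblast sum was 189443.5, 205171.1 and 192898.6. Their part in the HOXB8 value was not tested. In a bulk sample, a change in the number of cells that express a gene and a change in its RNA per cell cannot be told apart.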

How the data were processed

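Gene expression was measured on 1-colour Affymetrix arrays in total RNA of IMR-90 cells, on 3 arrays, 1 per siRNA. The authors deposited a linear intensity for every probe set. Per the submitters' processing notes the tool was MAS5 (version and settings: not given in the sources used here). The trimmed mean was equal on all arrays (497), so a shift common to all genes would not be seen, and no further scaling was applied. Detection calls were not used here.

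Of 54613 probe sets, 41091 had 1 gene symbol in the platform annotation, 1801 had several and were left out, 4 of them naming a HOX gene, and 11721 were not listed and stay unnamed. Symbols were updated by gene number to RefSeq of GRCh38.p14 (41037 matched). Probe sets with the suffixes _s_at, _x_at or _a_at can bind several transcripts and are called shared-type. Values were floored at the 25th percentile, log2 transformed and summarised by the brightest probe set, with a filter at the median over all probe sets. The fold rule was run on simulated arrays, built from the control array with changes of known size and little noise. That noise was smaller than the spread between the SETD8 siRNA arrays, so the run does not give the error rate of the rule here. The members, lists and rules were chosen with earlier results of these data known. The naming rule took all HOX genes, the KMT5A target and, per list, up to 4 genes 2-fold apart with both siRNAs and up to 3 with the brightest probe sets. TBX4, TBX5, HOTTIP, HOTAIR, HOXA-AS2, HAGLR, MNX1, CDX1, MEOX1 and the marker genes were named after their values were seen. Results were recomputed with shared-type probe sets left out, averaged probe sets, a stricter and no filter, folds of 1.5 and 3, quantile or median scaling, and a pseudocount of 16. The work used matplotlib 3.10.9, scipy 1.17.1, pandas 2.3.3 and numpy 2.4.6 under Python 3.11.15. With 1 array per siRNA, the number of arrays limits the precision.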

Additional observations from a re-analysis of the deposited data

Results flagged for a closer look

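HOXC5 and HOXC11 moved in opposite directions with the 2 SETD8 siRNAs and lay at least 2-fold apart between them. For HOXC5 the log2 difference of SETD8 siRNA 2 minus SETD8 siRNA 1 was -1.68, and for HOXC11 it was 1.40. Both are dim genes with 1 probe set each, both differences were smaller than the spread of 2.21 for genes of their signal, and with 1 array per siRNA neither difference was tested. HOXA2 (-2.49) and HOXB8 (1.78) kept the same sign with both siRNAs but lay further apart between them, over their spreads of 2.21 and 1.72.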

How the results depend on the processing

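The 13 HOX genes above the filter were the same ones under both scalings, the pseudocount, averaged probe sets and a choice of probe set and filter on the control array alone, which was added after seeing the data. They numbered 8 with shared-type probe sets left out and 6 with the filter at the 75th percentile. None was at least 2-fold apart from control in 1 direction with both siRNAs under any setting of scaling, pseudocount, probe sets or filter that was run, and at 1.5-fold 2 were higher and 1 was lower. The median over HOX genes, near 0 throughout, was 0.0027 for SETD8 siRNA 2 with median scaling, 0.0025 for SETD8 siRNA 1 with quantile normalization, 0.0874 and 0.0119 with averaged probe sets, -0.0776 for SETD8 siRNA 2 without shared-type probe sets, 0.0506 and 0.1755 with the 75th percentile filter, and 0 and 0 with no filter. The HOXB median with SETD8 siRNA 1 was 0.18 with averaged probe sets, and without shared-type probe sets the HOXB medians were 0.42 and 0.29 and the HOXC medians -0.10 and -0.27. With no filter the HOXC medians were -0.11 and 0. The HOXB8 value with SETD8 siRNA 2 reversed to -0.13 without shared-type probe sets, where its remaining probe set is under the filter, and was 1.19 with averaged probe sets. HOXB6 without them was -0.10 and -0.69. HOXB9 was 0.53 and 0.01 with averaged probe sets and 1.30 and 0.62 without shared-type ones. No paired analysis was possible because each siRNA has 1 array. Signal near the filter limits HOXA2, HOXB9, HOXC5 and HOXC11.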

Other observations

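Homeobox genes related to the HOX clusters stayed dim. None of 13 measured genes of the ParaHox group and its relatives passed the filter, against 62.2% of all named genes. CDX1, a ParaHox gene of the gut, had a signal of 116.0 with SETD8 siRNA 1, 20.7 with SETD8 siRNA 2 and 15.8 with the control siRNA, and MEOX1 had 117.7, 1.3 and 27.7, so each reached a signal above the filter on the SETD8 siRNA 1 array only. MNX1 had 40.4 and 55.3 on the SETD8 siRNA arrays and 7.3 on the control array.

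HAGLR, a noncoding gene beside HOXD1, was below the filter on all 3 of its probe sets, yet on each of them both SETD8 siRNA arrays were above the control array. The control signal was under the floor of 11.7 on all 3. The signals were 42.1 with SETD8 siRNA 1, 26.2 with SETD8 siRNA 2 and 1.0 with the control siRNA on the brightest, 46.8, 23.1 and 5.9 on the next, and 15.9, 16.5 and 11.2 on the last. HOXA-AS2, a noncoding gene of HOXA, had 3 probe sets under the filter, each lower on the SETD8 siRNA arrays than on the control array. The signals were 23.9 with SETD8 siRNA 1, 22.8 with SETD8 siRNA 2 and 60.8 with the control siRNA on the probe set that differed most. On its brightest probe set they were 38.8, 28.1 and 40.0 in the same order. HAGLR and HOXA-AS2 were named after their values were seen. Above the filter, 31.1% of genes were higher and 33.9% lower with both siRNAs at any size. The shares under the filter were not computed.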
